A study of Mus musculus with 19 samples.

Results

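The cadherin superfamily genes of the mouse were followed through a liver methylation study of the methionine adenosyltransferase gene Mat1a. Members were the genes annotated as protein-coding by RefSeq on GRCm38.p6 whose symbols begin with Cdh, Pcdh or Celsr followed by a digit or, for Pcdh, by any letters, which gave 95 of 21887 coding genes. A CpG site belonged to a member when it lay between the gene's ends or no more than 2 kb outside them, and sites shared by several genes of a protocadherin cluster were counted once. This gave 20 distinct sites out of 8525 listed in the study. The animals were 5 Mat1a knockout (KO) mice given S-adenosylmethionine (SAMe), 6 Mat1a KO mice given placebo and 8 untreated wild-type (WT) mice, all aged 10 months, with treatment lasting 8 weeks. Liver DNA was cut with MspI and TaqαI and read by reduced-representation bisulfite sequencing, an assay that reads cytosine methylation in the fragments that these enzymes release. The labels give neither the strain, the sex nor the construction of the KO allele. WT mice received no placebo, so genotype and the placebo or SAMe procedure cannot be told apart in a comparison with WT.

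The authors deposited 3 tables, 1 for each comparison (SAMe-treated KO against WT, placebo-treated KO against WT, and SAMe-treated KO against placebo-treated KO). Each line gives 1 CpG site with a difference in methylation in percentage points, a p-value and a q-value, and the site is called listed below. Listed sites had an absolute difference above 20 and a q-value of at most 0.0495. No methylation level, read depth or value per animal was available here, so depth is unknown, no value below carries an SD, and the genotype labels could not be checked. Differences were read as the first-named group minus the second, an order that the tables do not state. If the authors subtracted the other way, all directions below turn round together.

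Cadherins are calcium-dependent adhesion molecules of the cell surface, built from repeats of one extracellular domain. Classical cadherins hold neighbouring cells together at adherens junctions and bind catenins inside the cell, and in liver epithelial and neural forms of classical cadherin join hepatocytes to each other. Celsr proteins are large multi-pass cadherins, relatives of Flamingo in the fruit fly, that act in planar cell polarity. Protocadherins lie alone in the genome or in clusters named alpha, beta and gamma. In the alpha and gamma clusters each neuron is known to use a few of many alternative first exons, a choice tied to promoter methylation and to CTCF and cohesin.

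Annotated starts are shown for the 3 members that bear most on position, because Celsr3 held the most listed sites and Cdh26 and Cdh15 held the listed sites closest to an annotated start among members with such a window. Each run is the RefSeq promoter window of GRCm38.p6, from 250 bases before to 50 bases after the start, 5′ to 3′ on the gene's strand, with every CpG in capitals. The window of Celsr3 is chr9:108825795-108826094, that of Cdh26 is chr2:178430265-178430564 and that of Cdh15 is chr8:122848124-122848423, all on the plus strand.
Celsr3: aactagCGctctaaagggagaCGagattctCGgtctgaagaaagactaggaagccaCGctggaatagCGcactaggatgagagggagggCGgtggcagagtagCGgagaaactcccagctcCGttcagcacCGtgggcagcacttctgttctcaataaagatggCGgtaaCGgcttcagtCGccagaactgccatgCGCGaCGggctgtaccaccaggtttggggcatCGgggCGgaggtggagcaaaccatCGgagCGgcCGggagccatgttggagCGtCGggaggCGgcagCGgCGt
Cdh26: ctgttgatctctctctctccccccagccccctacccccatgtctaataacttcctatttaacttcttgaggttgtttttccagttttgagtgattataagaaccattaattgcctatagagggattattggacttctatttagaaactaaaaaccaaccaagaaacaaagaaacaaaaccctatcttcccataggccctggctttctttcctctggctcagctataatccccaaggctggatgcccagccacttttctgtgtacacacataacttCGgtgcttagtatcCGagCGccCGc
Cdh15: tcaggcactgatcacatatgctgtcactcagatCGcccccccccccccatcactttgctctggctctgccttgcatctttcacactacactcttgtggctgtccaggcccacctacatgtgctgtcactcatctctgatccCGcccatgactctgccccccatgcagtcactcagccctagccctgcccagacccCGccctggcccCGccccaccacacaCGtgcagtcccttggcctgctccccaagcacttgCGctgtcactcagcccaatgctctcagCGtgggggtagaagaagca
The Celsr3 window holds 25 CpGs, against 4 in Cdh26 and 7 in Cdh15. The MspI motif CCGG, which reads the same on both strands, occurs once in the Celsr3 window and in neither of the others. No listed site of any of the 3 tables fell in these windows.

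Promoter windows were found for 24 of the 95 members, 27 windows in all, and none held a listed site. That was also rare elsewhere, since 44 of 21238 windows of coding genes (0.207%) held a site in any table. The motif CCGG occurred in 15 of the 27 member windows (55.6%) and in 62.2% of all windows. The TaqαI motif TCGA, likewise the same on both strands, occurred in 3 member windows (11.1%) and in 23.9% of all windows. Member windows held a median of 18 CpGs, with a range of 2 to 40, against a median of 13 in all windows. A CCGG or TCGA is a place where the enzymes can cut and does not show that the fragment was sequenced.

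Of the 20 member sites, 19 were listed against WT, and these were lower in KO liver in each table that listed them. In the authors' deposited table of SAMe-treated KO against WT there were 12 member sites, all lower, with differences from −69.1 to −20.03 percentage points and a median of −23.6. The authors' deposited table of placebo-treated KO against WT held 15 member sites, all lower, from −56.4 to −20.5 with a median of −24.0. Over all listed sites of the authors' deposited tables the medians were −26.6 for SAMe-treated KO and −25.9 for placebo-treated KO. In all, 99.0% of the sites were lower in SAMe-treated KO and 99.4% in placebo-treated KO, so a lower site is no mark of the family. In SAMe-treated KO 2 of the 12 member sites (16.7%) reached 30 percentage points, against 35.3% of all sites in the authors' deposited table, and in placebo-treated KO 4 of the 15 (26.7%), against 30.9% of all sites. DNA came from whole liver, so a change in the mix of cell types and a change within cells cannot be told apart.

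By gene symbol, 29 of 95 members had a listed site in SAMe-treated KO against WT, where 10.8% of all coding genes had one, and 28 of 95 in placebo-treated KO against WT, where 12.5% of all coding genes had one. In each of these counts 21 genes are gamma protocadherins, which share the same 2 sites. With each of the 3 clusters counted as 1 locus there were 41 loci, of which 9 had a site in SAMe-treated KO and 8 in placebo-treated KO (19.5%). With no flank added, 8 of the 95 genes had one in SAMe-treated KO and 7 in placebo-treated KO. The shares of 10.8% and 12.5% include the flank, and no share without it was computed. Over the 3 tables together, 31 of the 95 members had a listed site and 64 had none. By locus it was 11 of 41, and among all coding genes 3286 of 21887 had a site in any table. A gene without a listed site was either below the authors' thresholds or not covered, which the tables do not separate.

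**Figure D1:**
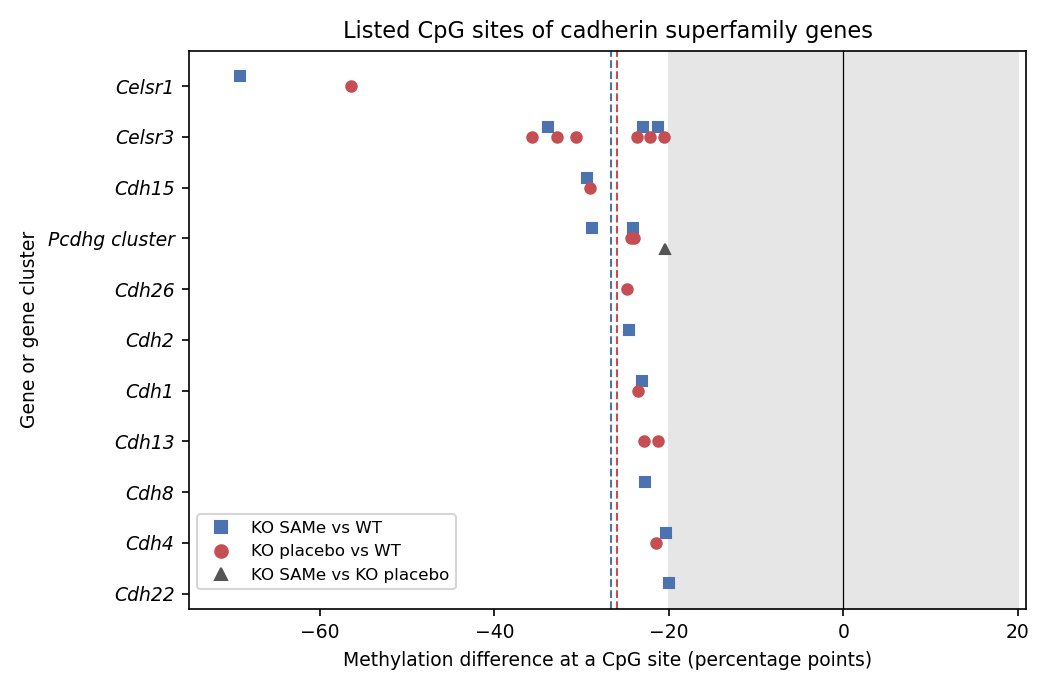
Methylation differences at the listed CpG sites of the family, in percentage points (x axis), by gene or gene cluster (y axis), with 1 marker per site and comparison. Dashed lines give the median of all listed sites for each comparison with WT (−26.6 for SAMe-treated KO, −25.9 for placebo-treated KO), and grey marks the range below the threshold of 20, where no site was listed; all member sites lie on the lower side, with Celsr1 farthest out.

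Celsr1 gave the largest difference of the family in each comparison with WT. The Celsr genes held 4 sites in SAMe-treated KO, as many as the type I cadherins, and 7 in placebo-treated KO, where the type I cadherins held 3. Celsr1, which in mouse orients hair follicles and inner ear hair cells through planar cell polarity, had 1 site on chromosome 15 at position 85978879 (mm10), inside the gene (85898758 to 86034223). That site stood at −69.1 percentage points in SAMe-treated KO against WT and at −56.4 in placebo-treated KO against WT, with both q-values 0 in the authors' deposited tables. In the authors' deposited table for SAMe-treated KO, 13 of 5383 sites were lower still, against 62 of 6721 in the table for placebo-treated KO. By its lowest site, 7 coding genes lay below Celsr1 in SAMe-treated KO and 33 in placebo-treated KO. The Celsr1 site stood alone, 82050 bp from the nearest listed site. A single CpG carried this difference, and no neighbouring site was listed to set beside it.

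Celsr3, which in mouse guides axons of the forebrain, had 6 sites, all in the later part of the gene (chromosome 9, 108826023 to 108852969). The first lay at position 108841103, 15058 bp from the annotated start, with −23.0 percentage points in SAMe-treated KO and −30.6 in placebo-treated KO in the authors' deposited tables. Position 108845665 stood at −33.8 in SAMe-treated KO and −32.8 in placebo-treated KO in the authors' deposited tables. Position 108848548 stood at −21.2 in SAMe-treated KO and −35.6 in placebo-treated KO in the authors' deposited tables. These 3 sites were lower in both KO groups.

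The other 3 Celsr3 sites were listed in placebo-treated KO against WT alone in the authors' deposited tables, at 108845813 (−20.5), 108848668 (−23.7) and 108848694 (−22.2). Their values were among the smallest of the gene and close to the threshold of 20. The first lay 148 bp past position 108845665, the second 120 bp past 108848548 and the third 26 bp farther on, so the 6 sites formed 3 short groups of 1, 2 and 3 sites over 7592 bp, none nearer to the start than 15058 bp. The mean was −27.6 over the 6 sites of placebo-treated KO and −26.0 over the 3 of SAMe-treated KO, by the differences in the authors' deposited tables. In placebo-treated KO, 105 of the 2745 coding genes with a site had as many sites as Celsr3 or more, and 56.1% had a single one. In SAMe-treated KO, 494 of 2363 had as many as its 3 or more. Celsr2, the remaining gene of the group, had no listed site within 2 kb, and the nearest lay 156753 bp away.

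**Figure D2:**
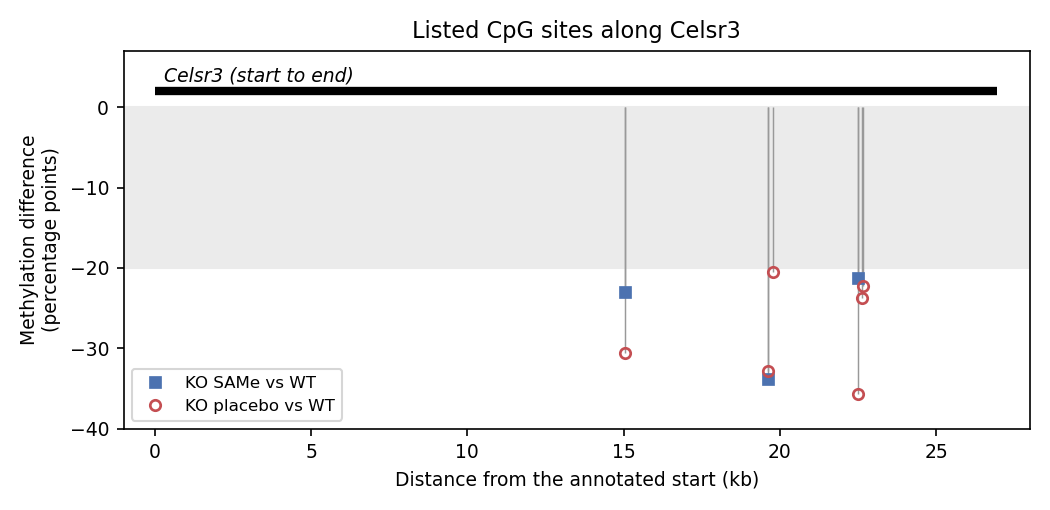
Methylation difference from WT at each listed CpG site (y axis, percentage points) against distance from the annotated start of Celsr3 (x axis, kb), with filled squares for SAMe-treated KO and open circles for placebo-treated KO. The black bar is the gene; all sites lie between 15.1 and 22.6 kb, and grey marks differences too small to be listed.

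Among the type I classical cadherins, 4 of 5 genes had a site in SAMe-treated KO, where 10.8% of all coding genes had one, and 3 of 5 in placebo-treated KO, where 12.5% had one. Cdh2 and Cdh4 are longer than 100 kb, and among coding genes of that length the shares were 22.3% and 27.4%. With 5 genes, neither count is read as a result. Cdh1 encodes E-cadherin, the epithelial adhesion molecule of hepatocytes and bile duct cells. Its site at chromosome 8 position 106608443, 5093 bp inside the lower end of the gene (106603350 to 106670247), stood at −23.1 percentage points in SAMe-treated KO (q = 7.43e-05) and −23.5 in placebo-treated KO (q = 0.000111) in the authors' deposited tables. Cdh15 encodes M-cadherin, known from muscle precursor cells. Its site at chromosome 8 position 122851749, 3375 bp inside the gene from its start, stood at −29.4 in SAMe-treated KO (q = 9.07e-07) and −29.0 in placebo-treated KO (q = 3.41e-09) in the authors' deposited tables. At Cdh1 SAMe-treated KO minus placebo-treated KO was 0.41 percentage points, and at Cdh15 it was −0.41.

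No site of the other type I genes was listed for both KO groups. Cdh2, which encodes N-cadherin and is also present on hepatocytes, had a site at chromosome 18 position 16740504 with −24.6 percentage points in SAMe-treated KO (q = 4.74e-06) and no listed site in placebo-treated KO in the authors' deposited tables. Cdh4, or R-cadherin, first known from retina, had a site at chromosome 2 position 179775864 in SAMe-treated KO (−20.3) and another, 72823 bp away at 179703041, in placebo-treated KO (−21.4), in the authors' deposited tables. Both Cdh4 values lay just past the threshold. Cdh3, or P-cadherin, had no listed site.

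Type II cadherins had a site in 2 of 13 genes in SAMe-treated KO and in 0 of 13 in placebo-treated KO, where 10.8% and 12.5% of all coding genes had one, so neither count is read as a result. The 2 were Cdh8 (chromosome 8, position 99030969, −22.7 percentage points, q = 1.31e-06) and Cdh22 (chromosome 2, position 165228827, −20.03, q = 1.07e-06) in the authors' deposited table, both mainly studied in brain. The Cdh22 value was the smallest of all member sites. Whether the KO groups differed at these sites was not tested, since a site missing from a table has no value there. Cdh5, which encodes VE-cadherin of endothelial junctions, had no listed site, the nearest being 77883 bp away.

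Of the 5 remaining cadherins, Cdh13 and Cdh26 had sites in placebo-treated KO, where 12.5% of all coding genes had one, and none had a site in SAMe-treated KO. A site listed for 1 KO group alone was common, since 55.2% of all sites in the authors' deposited table for placebo-treated KO were also listed for SAMe-treated KO. Cdh13 encodes T-cadherin, a membrane-anchored form without a cytoplasmic tail that binds adiponectin. It spans 1184913 bp of chromosome 8 and had 2 sites, at 118316192 (−21.2 percentage points, q = 4.13e-05) and 119138539 (−22.8, q = 0.000606) in the authors' deposited table. Cdh26, described in human gastrointestinal epithelium, had 1 site at chromosome 2 position 178431700, 1185 bp from its start, with −24.7 (q = 1.49e-11) in the authors' deposited table. This was the listed site nearest to an annotated start among members with a promoter window. Cdh16, Cdh17, the liver-intestine cadherin, and Cdh23, a tip link protein of hair cells, had none.

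Protocadherins were represented by the gamma cluster alone. The gamma genes share their last exons and so their upper end on chromosome 18. In the authors' deposited tables, 2 sites lay 757 and 850 bp past that end, at 37842630 and 37842723. The first stood at −24.1 percentage points in SAMe-treated KO (q = 3.68e-07) and −24.4 in placebo-treated KO (q = 2.31e-06) in the authors' deposited tables. At the second the authors' deposited tables gave −28.8 in SAMe-treated KO (q = 1.59e-09) and −24.0 in placebo-treated KO (q = 3.23e-07). Both sites were lower in the 2 KO groups, and they were also within 2 kb of Diaph1, a formin that nucleates actin, whose lower end lies 971 and 878 bp away. The tables cannot assign them to one gene or the other.

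The only member site in SAMe-treated against placebo-treated KO was also in the gamma cluster. It lay at chromosome 18 position 37763307 and was lower with SAMe by a difference of −20.4 percentage points (p = 2.41e-05, q = 0.00233) in the authors' deposited table, the nearest listed site being 79323 bp away. No value for this site was listed against WT. Because gamma genes overlap, the position lies inside 17 of the 21, from Pcdhga1 to Pcdhga11, and 1506 bp inside the annotated pseudogene Pcdhgb8. It lay 2273 bp before Pcdhga12, just outside the 2 kb limit, which was the sole case of a site between 2 and 5 kb from a member, and 3 predicted coding genes, Gm37013, Gm38666 and Gm38667, span the same stretch. By symbol this single site gave 17 of 95 members, where 0.658% of coding genes had a site; as loci it was 1 of 41. Of its 230 sites, the authors' deposited table for this comparison gave 69 as lower with SAMe and 161 as higher.

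The alpha cluster (14 genes), the beta cluster (22 genes) and the 12 protocadherins outside the clusters had no listed site in any of the 3 tables. Of all 21887 coding genes only 3286 had a site in any table, so these absences are not read as a result. A site that is not listed may also not have been covered. For the alpha genes the nearest listed site lay at least 196248 bp away and for the beta genes at least 241888 bp. Distances for protocadherins outside the clusters ran from 27503 bp at Pcdh12, a protocadherin of endothelium, to 5072576 bp at Pcdh9. Pcdh15, the partner of Cdh23 in tip links, is 1553555 bp long and had none either.

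At 8 member sites a difference from WT was listed for both KO groups, and subtracting them gives SAMe minus placebo, because WT cancels. The relation held within 1e-08 percentage points at the 26 sites present in all 3 of the authors' deposited tables. The 8 sites are 66.7% of the member sites of SAMe-treated KO and 53.3% of those of placebo-treated KO, against 68.9% and 55.2% of all sites. The 2 comparisons share the WT animals, so neither these shares nor the like direction is independent evidence. SAMe minus placebo was −12.7 percentage points at Celsr1, the lowest of the 8, and 83 of all 3707 sites with both values (2.24%) were as low or lower, from the authors' deposited tables. It was 14.4 at Celsr3 position 108848548, the highest of the 8, and 38 of the 3707 (1.03%) were as high or higher, again from the authors' deposited tables. Celsr3 position 108841103 followed with 7.63, while position 108845665 stood at −1.04. Cdh1 (0.41), Cdh15 (−0.41) and the gamma cluster sites (0.23 and −4.88) lay nearer to 0. The 8 sites thus split into 4 lower and 4 higher with SAMe, with a median of −0.09 against −0.46 over all 3707. None of the 8 was listed where the authors compared the KO groups directly. That follows from the threshold, since all 8 values lay between −12.7 and 14.4 and listed differences were above 20 in absolute size. The direct comparison therefore cannot decide whether the KO groups differed at these 8 sites, and no difference was shown at them.

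**Figure D3:**
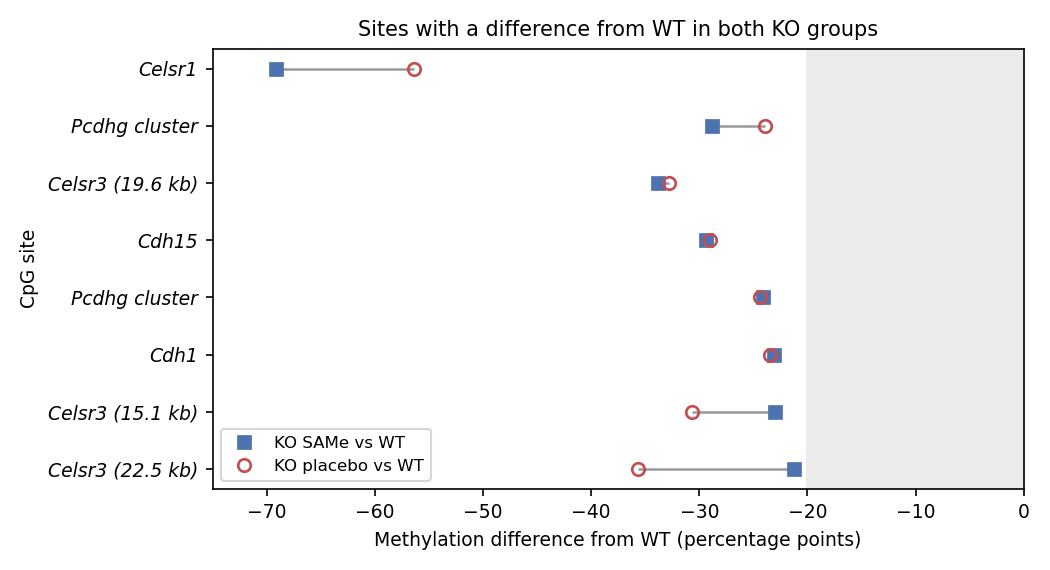
The 8 member CpG sites with a listed difference from WT in both KO groups (y axis, ordered by SAMe minus placebo), with the difference in percentage points on the x axis; filled squares are SAMe-treated KO and open circles placebo-treated KO. The lines join values of 1 site, and the longest are those of Celsr3 at 22.5 kb (14.4) and Celsr1 (−12.7).

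Many cadherin genes are long, and long coding genes had listed sites more often than short ones. The median member spans 94855 bp, against 17169 bp for all coding genes. Members with their 2 kb flanks cover 11.0 Mb and held 1.09 sites per Mb in SAMe-treated KO and 1.36 in placebo-treated KO. All coding genes with their flanks cover 1100 Mb and held 3.75 sites per Mb in SAMe-treated KO and 4.55 in placebo-treated KO. Of the 20 members outside the clusters that are 100 kb or longer, 5 had a site in SAMe-treated KO, against 22.3% of coding genes of that length, and 3 had one in placebo-treated KO, against 27.4%. Between 20 and 100 kb it was 2 of 12 in SAMe-treated KO, against 12.9% of coding genes, and 3 of 12 in placebo-treated KO, against 14.8%. Below 20 kb it was 1 of 6 in SAMe-treated KO, against 7.12%, and 1 of 6 in placebo-treated KO, against 8.03%. With so few members in a class, no share is read as a result about the family. The number of CpGs that were covered in each gene is not known.

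**Figure D4:**
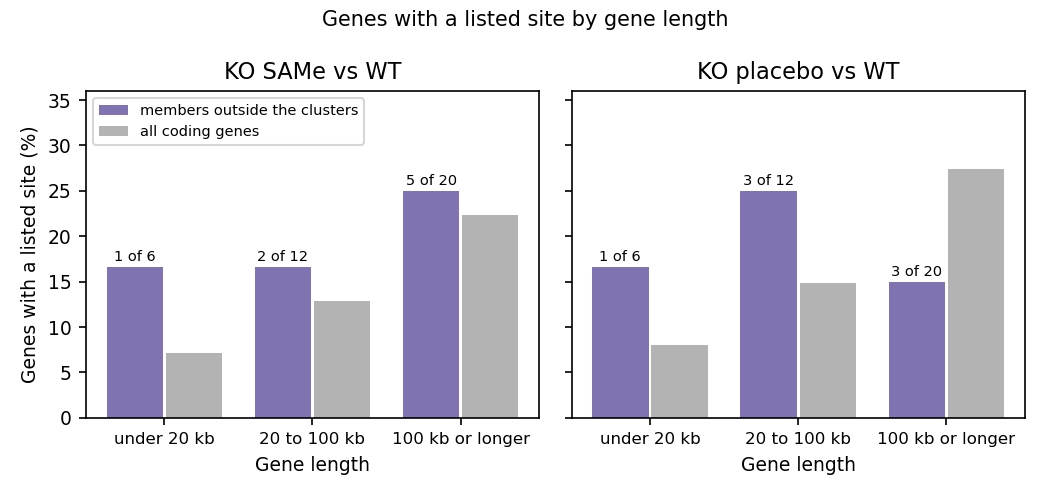
Percent of genes with a listed site (y axis) by gene length (x axis), for members outside the protocadherin clusters (purple, with the number of genes) and for all coding genes (grey), in SAMe-treated KO against WT (left) and placebo-treated KO against WT (right). Among genes of 100 kb or longer, 5 of 20 members had a site in SAMe-treated KO, against 22.3% of all coding genes, and 3 of 20 in placebo-treated KO, against 27.4%.

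Listed sites of the members lay inside genes in 18 of 20 cases, the exceptions being the 2 past the gamma cluster. They were scattered: another listed site lay within 1 kb of 7 of the 20 (35.0%), against 50.2% of all listed sites. Of the 11 loci with a site, 7 had a single one. Within each comparison with WT the member sites formed 11 regions when sites within 1 kb were joined. The largest gap was at Cdh8, whose site lay 2626242 bp from any other listed site.

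Partners of the family were read from 7 lists of 78 genes. Of these, 14 (17.9%) had a site in SAMe-treated KO, where 10.8% of all coding genes had one. In placebo-treated KO it was also 14, where 12.5% of all coding genes had one. Each comparison had 19 sites, all lower, as were 99.0% of all listed sites in SAMe-treated KO and 99.4% in placebo-treated KO. The counts per list below stand beside the same shares, and none is read as a result. No partner gene had a site in SAMe-treated against placebo-treated KO. Catenins and other armadillo proteins had 3 of 13 genes in each comparison with WT. Their largest difference in SAMe-treated KO was at Jup, or plakoglobin, a shared plaque protein of desmosomes and adherens junctions. Jup had 4 sites there, the largest at −40.3 percentage points, and 2 in placebo-treated KO, the largest at −24.5, in the authors' deposited tables. Pkp4, a plakophilin, stood at −24.4 in SAMe-treated KO and, at another position, −27.9 in placebo-treated KO in the authors' deposited tables. The latter was the largest of the list in placebo-treated KO. The catenin gene Ctnnd2 was listed in placebo-treated KO alone (−25.2) and Pkp3 in SAMe-treated KO alone (−21.8) in the authors' deposited tables. Ctnnb1, Ctnna1 and Ctnnd1, also catenin genes, had no listed site.

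Planar cell polarity partners of the Celsr proteins had 3 of 13 genes in each comparison. Vangl1, a core membrane protein of the pathway, stood at −34.4 percentage points in SAMe-treated KO and −40.3 in placebo-treated KO at the same position (chromosome 3, 102180934) in the authors' deposited tables. Ptk7, a polarity co-receptor, stood at −22.4 in SAMe-treated KO and −21.1 in placebo-treated KO in the authors' deposited tables. Dvl2 (−24.8) was listed in placebo-treated KO alone and Ankrd6 (−20.5) in SAMe-treated KO alone. Fzd3, Fzd6 and Vangl2 had none. Repressors and other regulators of Cdh1 transcription had 4 of 9 genes in SAMe-treated KO and 3 of 9 in placebo-treated KO. Tcf3, an E protein, stood at −30.4 in SAMe-treated KO and −36.2 in placebo-treated KO, by its largest site in the authors' deposited tables. For Tcf4, another E protein, the authors' deposited tables gave −21.9 in SAMe-treated KO and, at another position, −24.7 in placebo-treated KO. Zeb2 (−21.7) and Twist2 (−20.7) were listed in SAMe-treated KO and Zeb1 (−21.4) in placebo-treated KO in the authors' deposited tables.

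Other proteins with cadherin repeats had 2 of 15 genes in SAMe-treated KO and 3 of 15 in placebo-treated KO. Fat1, a giant cadherin of Hippo and polarity signalling, stood at −25.7 percentage points in SAMe-treated KO and −30.8 in placebo-treated KO at the same position in the authors' deposited tables. Desmosomal cadherins had 0 of 9 genes in any table. Regulators of protocadherin choice had 1 of 10 genes in each comparison with WT, the cohesin release factor Wapl (−24.5) in SAMe-treated KO and the cohesin subunit Stag1 (−22.8) in placebo-treated KO in the authors' deposited tables. Ctcf and Smchd1 had none. Protocadherin effectors had 1 of 9, the actin regulator Cyfip2, with −20.1 in SAMe-treated KO and −22.0 in placebo-treated KO in the authors' deposited tables. Among all coding genes 10.8% had a site in SAMe-treated KO and 12.5% in placebo-treated KO, and the lists were not corrected for length or coverage.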

How the data were processed

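Liver DNA methylation was measured in 19 mice. Per the submitters' processing notes, CASAVA 1.8.2, Trim Galore, Bismark and methylKit are named with the build mm10, in no stated order and with no stated settings. The deposited data used here are 3 tables of the authors' comparisons. On each line the authors give a methylation difference in percentage points with its p-value and q-value, and no source used here names the test. Depth per sample is unknown, and no fit over animals was possible.

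With Python 3.11.15 and pandas 2.3.3, sites were assigned to 21887 coding genes (mitochondrial ones left out) of RefSeq GRCm38.p6, whose coordinates on the main chromosomes are those of mm10. At the 62 pairs of a listed site and a promoter window, all 62 fell on the C or G that the table's strand names. The gene table gives no exons, and strand was taken from the promoter windows where present. Assignment was tested on simulated data. Results are counts and medians with no test, set beside the same over all genes or sites. Members and lists were chosen with earlier results of these data known. The naming rule took the 12 members with the largest difference in each comparison with WT, those with a site between the KO groups, those with 3 or more sites, and Cdh1, Cdh2, Cdh5 and Celsr1 to Celsr3; with each cluster taken as 1 locus it covered all members with a site. Other members and partners without a site were named after their values were seen. Alternatives changed the flank, the thresholds, the joining distance and the treatment of shared sites and clusters.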

Additional observations from a re-analysis of the deposited data

How the results depend on the processing

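No paired analysis was possible because the tables hold no values per animal, and no animal was left out in turn for the same reason. Of 84 values under the alternatives, 53 stayed close to those reported, 31 moved and 0 changed sign. Close meant counts within 1.5 times and medians within 1 SD over the member sites. The 0 sign changes hold by construction, since every member site was lower in each table that listed it and the other values are counts. Flanks of 5 kb and joining at 300 bp or 2 kb moved none. A q-value limit of 0.01 removes no member site by construction, the largest q-value of a member site being 0.00233.

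The count of genes follows the gamma cluster. Values are given for SAMe-treated KO against WT, placebo-treated KO against WT and, where it moved, SAMe-treated against placebo-treated KO. With sites inside genes only, it was 8 and 7 genes. Without sites shared with another coding gene it was 8, 7 and 0 genes, and the last comparison then had 0 sites and 0 regions. With each cluster as 1 gene it was 9, 8 and 1. At a minimum difference of 25 percentage points, SAMe-treated KO had 24 genes, because a gamma cluster site at −28.8 stayed in, placebo-treated KO had 3, and the comparison of the KO groups 0 genes, 0 sites and 0 regions. The sites against WT were then 4 and 5, the regions 4 and 5, and the sites with both values 3. At a minimum of 30 the genes were 2, 2 and 0, the sites 2, 4 and 0, the regions 2, 4 and 0, the sites with both values 2, and the medians −51.5 and −34.2 percentage points. These falls follow from fewer sites entering. Unknown depth and coverage limit all counts, since an unlisted site may not have been read.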
